A study of Homo sapiens with 6 samples.

Results

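The genes of the proteasome were compared between EZH2-depleted and control HMV-II cells. The members were the protein-coding genes of the deposited table whose symbols run from PSMA to PSMG followed by a number, without the immunoproteasome genes PSMB8 and PSMB9, which left 45 genes of the 47 that fit the naming pattern and of the 30015 genes listed. They fall into 16 genes of the core particle (PSMA and PSMB), 6 ATPases of the regulatory cap (PSMC), 14 non-ATPase genes of the cap (PSMD) and 9 activators and chaperones (PSME, PSMF and PSMG). HMV-II is a melanoma line from a vaginal tumour. The Vector group (3 libraries) is labelled WT and carried a scrambled control shRNA, and the shEZH2 group (3 libraries) carried an shRNA against EZH2, a histone methyltransferase that silences genes. Both were stable lines made with lentivirus and selected with puromycin, and neither received a further treatment. The table names the knockdown sh1, so that 1 shRNA in 1 cell line was compared here. No source used here says that the replicates were separate cultures, so p-values measure the spread between these libraries, which may be technical.

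The proteasome degrades proteins that carry ubiquitin. Its core is a barrel with outer rings of alpha subunits, which gate the entrance, and inner rings of beta subunits, of which PSMB5, PSMB6 and PSMB7 cut peptide bonds. The cap binds ubiquitin, removes it and unfolds the substrate with a ring of ATPases, and other activators and an inhibitor can bind the core in its place. Inhibitors of the core are drugs against multiple myeloma, and the transcription factor NFE2L1 is known to raise the subunit genes together when the proteasome is impaired.

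Depth was 13400290 to 15923029 reads on genes in Vector and 16129171 to 19128939 in shEZH2 libraries. Normalised read counts are reads divided by one size factor per library, and log2 fold changes below are shEZH2 over Vector from limma on log2(normalised read count + 1). EZH2 itself read 483, 437 and 552 in Vector and 237, 247 and 225 in shEZH2, a log2 fold change of -1.04 ± 0.14 (SE, limma adjusted p = 0.0142) with groups that did not overlap, and an exact permutation test (two-sided, 20 possible arrangements) gave p = 0.10, the smallest it can give. All 9 melanocyte and melanoma markers were listed, with summed levels, mostly PMEL, of 75579 to 101194 in Vector and 79558 to 86020 in shEZH2. The sum hides single markers that went in opposite directions. TYR read 7391, 4388 and 7250 in Vector and 3097, 3194 and 3153 in shEZH2. TYRP1 read 283, 257 and 285 in Vector and 843, 942 and 876 in shEZH2. Leukocyte markers summed to 5.09 to 21.0 in Vector and 11.5 to 13.6 in shEZH2, endothelial markers to 21.4 to 67.5 and 20.05 to 26.4, fibroblast markers to 176 to 245 and 249.5 to 309, and keratinocyte markers, almost all KRT10, to 128 to 528 and 404 to 680. CD3E, CDH5, KRT5 and KRT1 were not listed. In bulk RNA, fewer cells of a type and less RNA per cell cannot be told apart.

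One library stood apart, and it bears on nearly every value that follows. In Vector replicate 2, with genes split by length into 5 equal bins, the shortest bin had a median of -0.49 against the gene means on the log2 scale and the longest bin one of 0.37, whereas in both bins the other 5 libraries stayed between -0.19 and 0.24. The tested members had a median gene length of 4007 bases, against 4622 for all genes tested. The groups differed, with 2256 for the core, 4018.5 for the cap ATPases, 5075.5 for the cap non-ATPase genes and 3582 for the activators and chaperones. Within the core it was 1787 for PSMB1 to PSMB7 and 5336 for the alpha genes. Vector replicate 2 was below both other Vector libraries in 38 of the 44 members tested and the lowest of all 6 libraries in 36, against 5737 of 15251 genes tested. Its median difference from the mean of Vector replicates 1 and 3 was -0.67 for the members and -0.02 for all genes tested, on the log2 scale. A low Vector replicate 2 raises the fold change of shEZH2 over Vector, so the main fold changes are given with and without this library. What set this library apart was not tested.

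**Figure D1:**
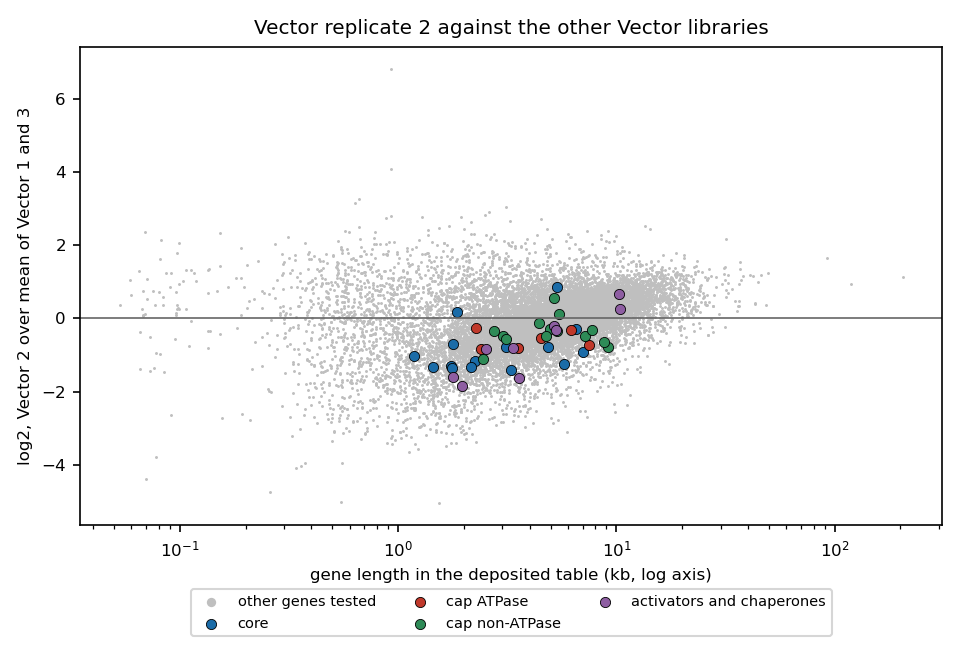
Log2 ratio of Vector replicate 2 to the mean of Vector replicates 1 and 3 (vertical axis) against gene length in kb (horizontal log axis). Grey points are all other genes tested and coloured points the proteasome members by group. Short genes lie low in Vector replicate 2, and most members lie below 0, with a median of -0.67.

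The differences lay mostly in the beta ring of the core, whose genes are also the shorter ones. There 6 of the 7 genes PSMB1 to PSMB7 were higher in every shEZH2 library than in any Vector library. This held for 1 of 7 alpha genes and for 18.4% of all genes tested. Of the 44 members that passed a mean of 10 normalised read counts, 38 had a log2 fold change above 0, against 8157 of 15251 genes tested. Without Vector replicate 2, 30 of 44 members did, against 7531 of 15251 genes. In the fit of all libraries, 5 members passed the study's threshold of an unadjusted p under 0.05 and a fold change above 1.5. All 5 were core genes and higher in shEZH2 (PSMB6, PSMB3, PSMB2, PSMB1 and PSMA4). Over all genes tested, 7.55% were called higher and 7.07% lower, and 0 members were called lower. With the p-value alone, 8 members passed as higher, also PSMD2, PSMC3 and PSMB7, and 0 as lower, against 11.9% and 11.3% of all genes. None of the members had an adjusted p under 0.05 with limma or with edgeR, against 4.12% of all genes with limma. With DESeq2 3 of 44 did, or 6.82%, and all 3 were higher. Of all 15251 genes, 770 passed as higher and 874 as lower with DESeq2, or 10.8% together.

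The number of calls rested on single libraries. It was 1 without Vector replicate 2, and 10 without Vector replicate 1 or 3, where 10.0% and 9.38% of all genes were called higher. Without shEZH2 replicate 1, 2 or 3 it was 2, 3 and 2 of 44, near the shares of all genes (5.57%, 6.26% and 5.72%). Without Vector replicate 2, 7 members had an adjusted p under 0.05 with limma, all higher in shEZH2 (PSMD2, PSMB6, PSMB2, PSMC3, PSMB3, PSMA4 and PSMB7). In that fit 9.78% of all genes passed as higher, and 7.05% passed the study's threshold as higher. A fit on values from which a gene length trend had been removed in each library kept all 6 libraries and gave 3 members an adjusted p under 0.05 (PSMB6, PSMD2 and PSMB3), beside 4.43% of all genes called higher.

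By group, the median log2 fold change was 0.53 for the core, 0.33 for the cap ATPases, 0.21 for the cap non-ATPase genes and 0.29 for the activators and chaperones, against 0.04 for all genes tested. Without Vector replicate 2 the medians were 0.26, 0.13, 0.07 and 0.07, against -0.01 for all genes. The core thus kept the highest median of the 4 groups in both fits. Members of which all shEZH2 libraries lay above all Vector libraries numbered 15 of 44, and those of the reverse pattern 0, against 18.4% and 16.5% of all genes. The 15 were 7 core genes, 3 ATPases, 3 non-ATPase genes and 2 activators and chaperones. Without Vector replicate 2 they numbered 16 above and 5 below, against 25.1% and 24.9% of all genes.

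**Figure D2:**
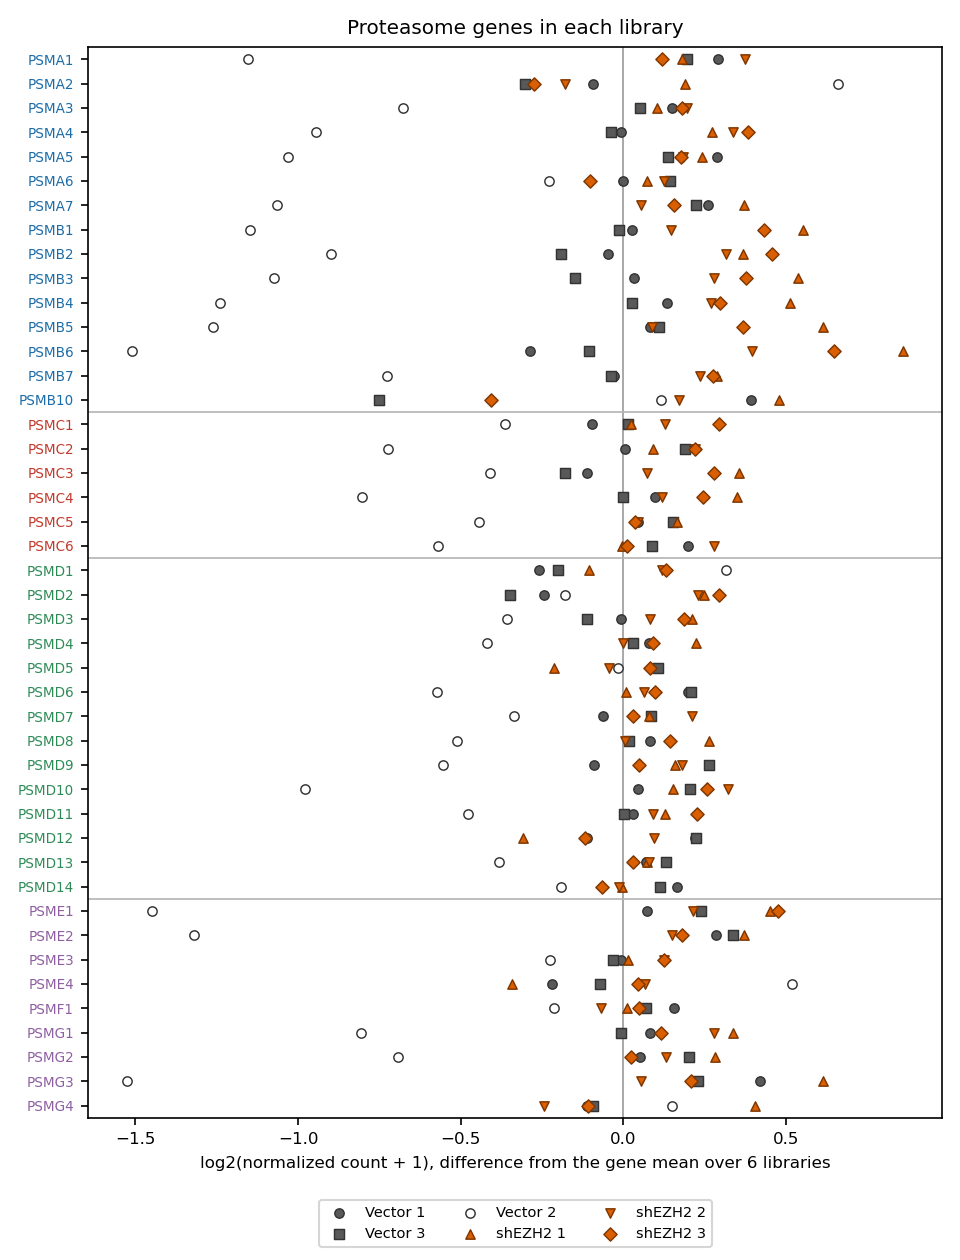
Level of each tested member in each of the 6 libraries, as the difference of log2(normalised read count + 1) from the gene's mean (horizontal axis), with members in rows by group. Vector replicate 2 lies far to the left for most members, with a median of -0.56, while Vector replicates 1 and 3 have medians of 0.05 and 0.04 and the shEZH2 libraries 0.22, 0.13 and 0.15.

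The promoters of the called members that had a window are shown, and that of PSMD2, which was picked from its values. PSMC3 also had a window and an adjusted p under 0.05 without Vector replicate 2, and its promoter is not shown. RefSeq promoter windows of GRCh38.p14 were found for 39 of the 45 members (47 windows), and among the called members for PSMB2, PSMB3 and PSMA4. Each run is the 250 bases before an annotated start, read 5′ to 3′ on the strand of the gene, and for a gene with several starts a window holding TGACNNNGC was shown where there was one. Capitals mark the letters TGACNNNGC, the centre of the antioxidant response element bound by factors of the NFE2L1 family, and CCAAT, the box bound by NF-Y, each searched on both strands. The windows are chr1:35641527-35641776 (minus strand) for PSMB2, chr17:38752491-38752740 (plus strand) for PSMB3, chr15:78540536-78540785 (plus strand, 1 of 3 listed starts) for PSMA4 and chr3:184298991-184299240 (plus strand, 1 of 2 listed starts) for PSMD2. Those of PSMB2, PSMA4 and PSMD2 lie inside the gene bounds of the deposited table. Their annotated starts are thus downstream of the gene starts listed there (35641844, 78540405 and 184298709).
PSMB2: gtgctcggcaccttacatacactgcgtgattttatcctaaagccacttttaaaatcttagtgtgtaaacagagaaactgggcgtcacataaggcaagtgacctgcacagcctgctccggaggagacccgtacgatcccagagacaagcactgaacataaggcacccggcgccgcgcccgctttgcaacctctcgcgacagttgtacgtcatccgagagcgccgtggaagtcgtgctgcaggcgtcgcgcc
PSMB3: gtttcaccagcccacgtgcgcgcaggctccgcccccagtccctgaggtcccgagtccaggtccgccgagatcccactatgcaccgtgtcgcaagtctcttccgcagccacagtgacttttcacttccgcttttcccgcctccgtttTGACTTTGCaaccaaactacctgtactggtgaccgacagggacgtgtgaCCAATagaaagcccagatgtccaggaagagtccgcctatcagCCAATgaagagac
PSMA4: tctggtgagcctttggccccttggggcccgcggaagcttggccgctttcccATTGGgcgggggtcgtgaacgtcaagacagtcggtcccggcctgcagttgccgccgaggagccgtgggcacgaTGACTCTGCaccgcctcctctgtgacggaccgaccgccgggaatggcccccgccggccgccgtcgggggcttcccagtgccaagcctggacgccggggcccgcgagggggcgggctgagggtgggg
PSMD2: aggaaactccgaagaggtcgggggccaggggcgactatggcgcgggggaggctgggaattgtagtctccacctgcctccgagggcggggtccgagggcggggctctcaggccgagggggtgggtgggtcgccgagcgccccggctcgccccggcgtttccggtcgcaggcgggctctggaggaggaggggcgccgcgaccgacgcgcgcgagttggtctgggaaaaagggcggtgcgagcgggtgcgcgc
In PSMB3, TGACNNNGC begins at position -104 from the start and CCAAT at -55 and -13. In PSMA4, TGACNNNGC begins at -126 and the reverse complement of CCAAT at -199. PSMB2 and PSMD2 hold neither in these windows. Over all members TGACNNNGC was found in 12 of 47 windows (25.5%) and in 10.9% of all 35116 promoter windows of the same length, and CCAAT in 18 of 47 (38.3%) and in 32.0%. The 12 genes with TGACNNNGC, of 39 members with a window, were PSMA4, PSMB3, PSMC5, PSMD3, PSMD5, PSMD9, PSMD12, PSME1, PSME2, PSME4, PSMG1 and PSMG2. They include 2 of the 3 called members with a window. They also include PSMC5, PSMD12 and PSME4, which had the lowest log2 fold changes of their groups. A link between these letters and the changes was not tested. These matches describe the letters of the windows and show no binding.

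Among the catalytic subunits, PSMB6 stood highest above its controls. PSMB6 (ENSG00000142507), the subunit with caspase-like activity, lies on the plus strand of chromosome 17 from 4796144 to 4798503 of GRCh38. Its normalised read counts were 448, 191 and 508 in Vector and 992, 719 and 856 in shEZH2. Every shEZH2 library was above every Vector library, and Vector replicate 2 was the lowest. This gave a log2 fold change of 1.27 ± 0.36 (SE, 95% interval 0.44 to 2.10, limma adjusted p = 0.0924). Without Vector replicate 2 it was 0.83 ± 0.14 (limma adjusted p = 0.00132), and PSMB6 alone of the members passed the study's threshold in all 23 alternative fits.

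PSMB5 (ENSG00000100804, chromosome 14, minus strand, 23016543 to 23035230), the subunit with chymotrypsin-like activity and the main target of bortezomib, read 2062, 811 and 2099 in Vector and 2981, 2069 and 2513 in shEZH2. The groups overlapped, since shEZH2 replicate 2 lay between Vector replicates 1 and 3. Its log2 fold change of 0.71 ± 0.37 (limma adjusted p = 0.286) was 0.26 without Vector replicate 2 (95% interval -0.02 to 0.55, limma adjusted p = 0.195). PSMB7 (ENSG00000136930, chromosome 9, minus strand, 124353466 to 124415444), which has trypsin-like activity, read 1890, 1164 and 1878 in Vector and 2352, 2269 and 2333 in shEZH2. The groups did not overlap, and the shEZH2 libraries were close to each other. Its log2 fold change was 0.53 ± 0.20 (limma adjusted p = 0.180) and 0.30 ± 0.09 without Vector replicate 2 (limma adjusted p = 0.0399). Without Vector replicate 1 or 3, both PSMB5 (0.93 and 0.95) and PSMB7 (0.65 and 0.64) passed the study's threshold.

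The other beta subunits, which build the ring without cutting, were also lowest in Vector replicate 2. PSMB2 (ENSG00000126067, chromosome 1, minus strand, 35599544 to 35641844) read 1867, 1033 and 1688 in Vector and 2485, 2398 and 2644 in shEZH2. All shEZH2 libraries were above all Vector libraries. This made a log2 fold change of 0.76 ± 0.23 (limma adjusted p = 0.107), and without Vector replicate 2 one of 0.50 ± 0.10 (limma adjusted p = 0.00398). Without that library PSMB2 was under the study's fold change and was not called. PSMB3 (ENSG00000277791, chromosome 17, plus strand, 38752736 to 38764231) read 1042, 483 and 919 in Vector and 1477, 1235 and 1322 in shEZH2, again without overlap. Its log2 fold change was 0.79 ± 0.28 (limma adjusted p = 0.153) and 0.45 ± 0.11 without Vector replicate 2 (limma adjusted p = 0.0143). PSMB3 was not called without Vector replicate 2, nor without shEZH2 replicate 1 (0.72) or 3 (0.80). PSMB1 (ENSG00000008018, chromosome 6, minus strand, 170535117 to 170553341) read 700, 310 and 681 in Vector and 1008, 760 and 928 in shEZH2, with no overlap. Its log2 fold change of 0.76 ± 0.32 (limma adjusted p = 0.207) was 0.37 ± 0.13 without Vector replicate 2 (limma adjusted p = 0.0607), and it was not called without that library or without any 1 of the shEZH2 libraries (0.67 to 0.87). PSMB4, chosen after its values were seen, had the highest level and read 7670, 2958 and 7130 in Vector and 9986, 8438 and 8598 in shEZH2. Its groups did not overlap, with a log2 fold change of 0.72 ± 0.35 and of 0.28 ± 0.10 without Vector replicate 2 (limma adjusted p = 0.264 and 0.0692). It passed the study's threshold without Vector replicate 1 (0.97) or 3 (0.91).

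Among PSMB1 to PSMB7, 6 of 7 had groups that did not overlap, with or without Vector replicate 2. The shares of all genes with shEZH2 higher in this way were 18.4% and 25.1%. The median difference from the gene means over these 7 genes was 0.03, -1.15 and -0.04 in the Vector libraries and 0.54, 0.27 and 0.38 in the shEZH2 libraries. The remaining beta genes serve immune and thymic cells. PSMB10, which replaces PSMB7 in the immunoproteasome, was low, at 19.3 to 43.9 in Vector and 24.8 to 46.7 in shEZH2, and overlaps a listed gene on its own strand. PSMB11, the thymic subunit, was at 0 in 5 libraries and at 2.86 in shEZH2 replicate 3, and was the 1 member under the minimum mean.

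The alpha subunits showed less. Of 7 genes, only PSMA4 had groups that did not overlap, with or without Vector replicate 2, where 18.4% and 25.1% of all genes were higher in this way. PSMA4 (ENSG00000041357, chromosome 15, plus strand, 78540405 to 78552419) read 1456, 759 and 1423 in Vector and 1768, 1848 and 1908 in shEZH2. Its log2 fold change was 0.66 ± 0.25 (limma adjusted p = 0.178), and without Vector replicate 2 it was 0.35 ± 0.10 (limma adjusted p = 0.0222). The call of PSMA4 was lost without Vector replicate 2 and without any 1 of the shEZH2 libraries (0.64 to 0.69). The other alpha genes overlapped between groups, and their log2 fold changes ran from -0.18 (PSMA2) to 0.45 (PSMA1). Without Vector replicate 2 these lay between -0.05 (PSMA7) and 0.11 (PSMA2). For PSMA5, for example, the Vector libraries read 1828, 732 and 1645 and the shEZH2 libraries 1771, 1701 and 1693. Vector replicate 2 alone was low there, and the other 5 libraries lay close together. The median difference from the gene means over the 7 alpha genes was 0.15, -0.95 and 0.14 in Vector and 0.19, 0.18 and 0.15 in shEZH2. In the beta genes, unlike here, the shEZH2 medians were well above those of Vector replicates 1 and 3. The median gene length was 1787 bases for PSMB1 to PSMB7 and 5336 for the alpha genes. With the length trend removed, the median log2 fold changes of these lists were 0.51 and 0.15. The difference between the alpha and beta genes, and its link to gene length, was not tested.

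PSMA2 (ENSG00000106588, chromosome 7, minus strand, 42916857 to 42932223) was the lowest alpha gene, at 27.2, 46.6 and 23.4 in Vector and 33.3, 25.6 and 23.9 in shEZH2. Vector replicate 2 was the highest library there, against the pattern of the other alpha genes, and the log2 fold change of -0.18 ± 0.32 (limma adjusted p = 0.760) was 0.11 without it.

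In the ring of cap ATPases, which unfold substrates, all 6 log2 fold changes were above 0 (0.16 to 0.47), as were 8157 of 15251 genes tested. Without Vector replicate 2, 4 of 6 were above 0, with PSMC5 at -0.02 and PSMC6 at -0.05. With all libraries 1 gene had an unadjusted p under 0.05, against 11.9% of all genes as higher. The groups did not overlap in 3 (PSMC1, PSMC3 and PSMC4), against 18.4% of all genes with shEZH2 higher. PSMC4 had the highest change and read 2642, 1416 and 2466 in Vector and 3145, 2680 and 2926 in shEZH2. All shEZH2 libraries were above all Vector libraries, with shEZH2 replicate 2 close to Vector replicate 1. PSMC4 was at 0.47 ± 0.24 (limma adjusted p = 0.286) and 0.19 ± 0.10 without Vector replicate 2 (limma adjusted p = 0.220), and it passed the study's threshold without Vector replicate 1 (0.64). PSMC3, chosen because it passed the adjusted threshold in the fit without Vector replicate 2, read 1586, 1290 and 1514 in Vector and 2197, 1805 and 2079 in shEZH2. Here Vector replicate 2 was only slightly low, at 83.2% of the other Vector libraries. PSMC3 was at 0.47 ± 0.15 (limma adjusted p = 0.118) and 0.38 ± 0.11 without that library (limma adjusted p = 0.0261). PSMC5 had the lowest change, with 1860, 1324 and 2001 in Vector and 2021, 1859 and 1847 in shEZH2. Its groups overlapped, and the log2 fold change was 0.16 ± 0.18 (limma adjusted p = 0.594), or -0.02 without Vector replicate 2.

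The non-ATPase genes of the cap had log2 fold changes on both sides of 0. PSMD2 (ENSG00000175166, chromosome 3, plus strand, 184298709 to 184309054), the scaffold at the base of the cap where ubiquitin shuttles dock, was little touched by the library that stood apart. It read 2452, 2565 and 2281 in Vector and 3450, 3401 and 3557 in shEZH2. Every shEZH2 library was well above every Vector library, and Vector replicate 2 was the highest of its group. The log2 fold change was 0.51 ± 0.12 (95% interval 0.22 to 0.80, limma adjusted p = 0.0656), 0.55 ± 0.09 without Vector replicate 2 (limma adjusted p = 0.00134) and 0.50 after removal of the length trend (limma adjusted p = 0.0290). The change was under the fold of 1.5 that the study asked for, which it passed in 1 of 23 alternative fits, that with array weights (0.59).

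PSMD12 (ENSG00000197170, chromosome 17, minus strand, 67337916 to 67366627), a subunit of the lid, had the lowest log2 fold change of all tested members. It read 1467, 1164 and 1470 in Vector and 1015, 1342 and 1160 in shEZH2. With all libraries the groups overlapped, since Vector replicate 2 lay among the shEZH2 libraries. PSMD12 was at -0.22 ± 0.16 (limma adjusted p = 0.439), and -0.33 ± 0.12 without Vector replicate 2 (limma adjusted p = 0.0730). Of the 14 non-ATPase genes, PSMD2, PSMD3 and PSMD11 were above their controls without overlap in all libraries. Without Vector replicate 2 these 3 and PSMD1, the other large scaffold of the base, were above, and PSMD12, PSMD6, PSMD14 and PSMD5 were below. These counts were near the shares of all genes. With all libraries 18.4% of all genes were above, and without Vector replicate 2 25.1% were above and 24.9% below. PSMD14 is the deubiquitinase of the lid, and its log2 fold change was -0.06 ± 0.14, or -0.17 ± 0.10 without Vector replicate 2 (limma adjusted p = 0.825 and 0.251). For the ubiquitin receptor PSMD4 it was 0.21 ± 0.17, or 0.05 without Vector replicate 2. The assembly chaperones of the cap that carry PSMD symbols had values of -0.12 (PSMD5), 0.26 (PSMD9) and 0.49 (PSMD10), and -0.16, 0.04 and 0.12 without that library. PSMD10 passed the study's threshold without Vector replicate 3 (0.71).

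None of the 9 activators and chaperones passed a threshold in the fit of all libraries. PSME1 (ENSG00000092010, chromosome 14, plus strand, 24136158 to 24138967), which forms an interferon-inducible activator with PSME2, had the highest log2 fold change. It read 594, 206 and 667 in Vector and 772, 656 and 785 in shEZH2. Vector replicate 2 was at 32.7% of the other Vector libraries, and shEZH2 replicate 2 lay just under Vector replicate 3. The log2 fold change of 0.76 ± 0.41 (limma adjusted p = 0.310) was 0.22 ± 0.12 without Vector replicate 2 (limma adjusted p = 0.226), and it passed the study's threshold without Vector replicate 3 (1.07). PSME2 had values of 0.47 and, without Vector replicate 2, -0.08.

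PSME4 (ENSG00000068878, chromosome 2, minus strand, 53864067 to 53970840), a large single-chain activator found in the nucleus, had the lowest log2 fold change of the group. It read 2587, 4317 and 2865 in Vector and 2377, 3155 and 3110 in shEZH2. Vector replicate 2 was the highest library in this long gene, and the groups overlapped. PSME4 was at -0.15 ± 0.22 (limma adjusted p = 0.696), or 0.07 without Vector replicate 2. The nuclear activator PSME3 had groups that did not overlap at a small difference, 0.18 ± 0.13 and 0.11 without that library (limma adjusted p = 0.448 and 0.460). PSMF1, an inhibitor of the core, was at -0.01 ± 0.15 and, without Vector replicate 2, at -0.12, with a 95% interval of -0.35 to 0.34 in the fit of all libraries. The core assembly chaperones PSMG1 to PSMG4 had log2 fold changes of 0.49, 0.29, 0.58 and 0.04, and of 0.21, 0.02, -0.03 and 0.12 without Vector replicate 2. PSMG1 alone of these had groups that did not overlap, and it passed the study's threshold without Vector replicate 1 (0.65).

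**Figure D3:**
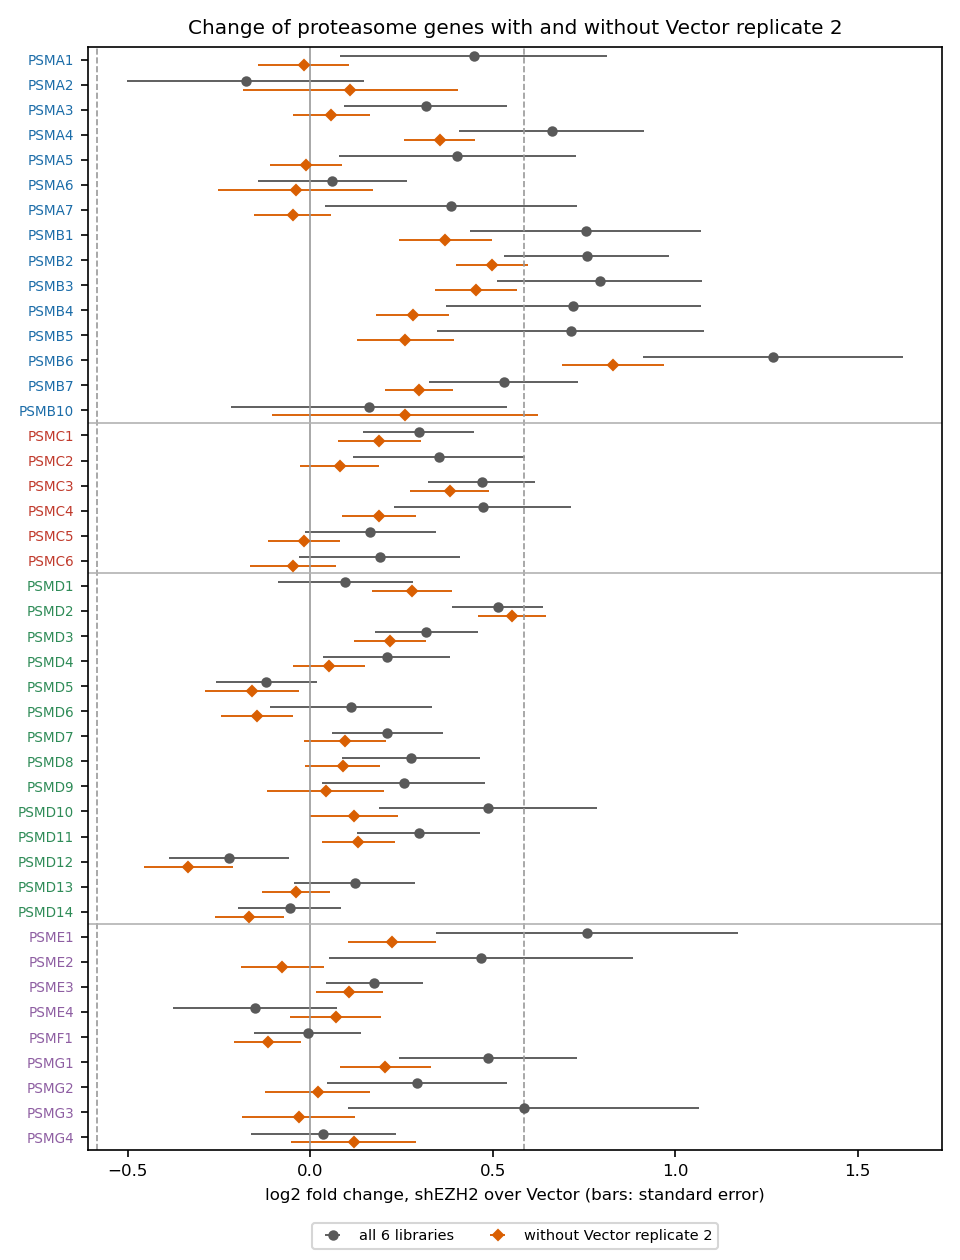
Log2 fold change of shEZH2 over Vector with its standard error (horizontal axis) for the 44 tested members, in all 6 libraries (grey circles) and without Vector replicate 2 (orange diamonds). Dashed lines mark a fold change of 1.5 in each direction. Most members move toward 0 without Vector replicate 2, with the median going from 0.31 to 0.10, while PSMD2 goes from 0.51 to 0.55 and PSMB6 stays beyond the dashed line at 0.83.

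Levels were compared between genes per kb of the gene length in the table. PSMB4 was the highest member, at 3459 normalised read counts per kb over all libraries, followed by PSMA7 (2013), PSMD4 (1343), PSMB5 (1184), PSMB7 (1108) and PSMC4 (1067). From PSMD4 to PSMC4 the mean ± SD ranges of neighbours in this order overlapped in both groups, so that neighbours did not differ beyond their spread. The lowest tested members were PSMA2 (5.62 per kb), PSMA6 (8.25), PSMD9 (16.9) and PSMB10 (18.7), although PSMA2 and PSMA6 are constituents of every core. The table gives 1 length per gene, which need not be that of the transcript these cells use. The annotation places genes on the same strand across several of these: ENSG00000256646 across PSMA2, AL121594.1 across PSMA6, WDR66 across PSMD9 and AC040162.1 across PSMB10, so these levels are uncertain, and how reads in shared exons were treated is not given in the sources used here. In all, 21 of the 45 members overlap a listed gene with a mean of at least 10 normalised read counts, 5 of them on the same strand, and whether the counting used strand is not stated either.

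**Figure D4:**
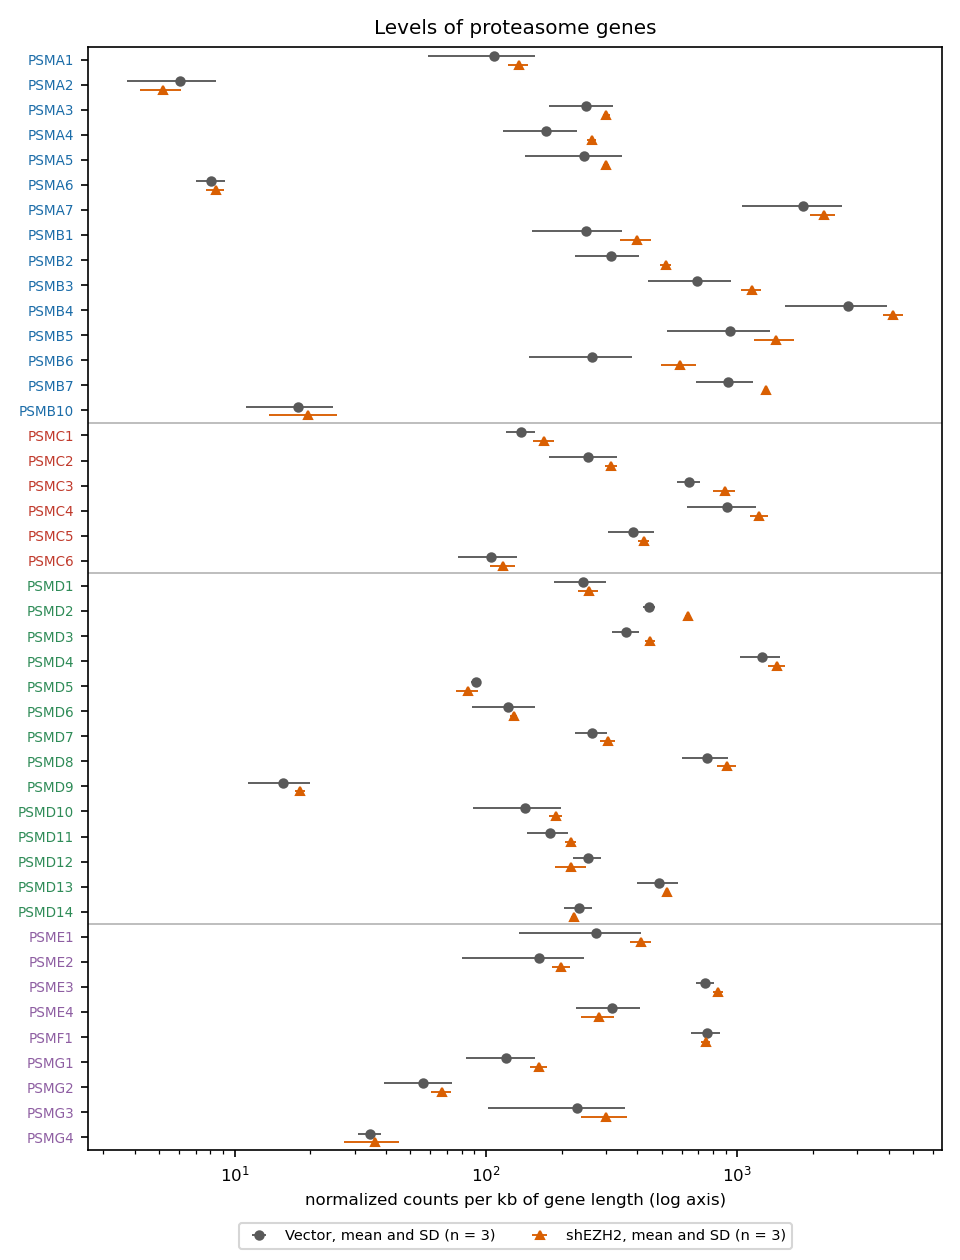
Mean level of the 44 tested members in normalised read counts per kb of gene length (horizontal log axis), with the SD over 3 libraries, in Vector (grey circles) and shEZH2 (orange triangles). PSMB4 and PSMA7 lie at the top and PSMA2 and PSMA6 at the bottom of the core, and the Vector bars are wide wherever Vector replicate 2 was low.

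Genes outside the naming pattern that work with the proteasome had a median near 0. All 29 partners reported here were tested, 0 were called by the study's threshold, and 0 had an adjusted p under 0.05 with limma. An unadjusted p under 0.05 was found in 3 of 29, all lower in shEZH2 (NFE2L1, RAD23B and UBQLN1). This is near the share of all genes that were lower by the same measure, 11.3%. DESeq2 called 1 of the 29 lower by the study's threshold, against 8.66% of all genes. It gave 3 of the 29 an adjusted p under 0.05, all lower, where 874 of 15251 genes passed as lower. The median log2 fold change of the partners was -0.05, and -0.10 without Vector replicate 2. Groups did not overlap in 1 partner higher and 8 lower in shEZH2, and without Vector replicate 2 in 3 higher and 14 lower, and the shares over all genes stand above. In the fit without that library 4 partners fell with an adjusted p under 0.05 with limma (NFE2L1, NFE2L2, RAD23B and UBQLN1), where 9.07% of all genes did so, and 0 rose.

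NFE2L1, the transcription factor of the proteasome genes, read 11677, 15864 and 11734 in Vector and 8536, 8088 and 9537 in shEZH2. The highest shEZH2 library was below the lowest Vector library, and Vector replicate 2 was the highest of all. NFE2L1 was at -0.57 ± 0.18 (limma adjusted p = 0.116) and -0.43 without Vector replicate 2 (limma adjusted p = 0.00818). It just missed the fold change of 1.5 and passed it without Vector replicate 1 (-0.65) or 3 (-0.65), without shEZH2 replicate 3 (-0.64), and with DESeq2 (-0.61) or edgeR (-0.62 to -0.59). Its relative NFE2L2, the main factor of the oxidative stress response, was at -0.35 and, without Vector replicate 2, at -0.52 (limma adjusted p = 0.302 and 0.00774). DDI2, the protease that frees NFE2L1 from the membrane, was at -0.33 and -0.15, and NGLY1, which removes its sugars, at 0.03 and -0.10.

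The shuttles that carry ubiquitinated proteins to the cap had shEZH2 libraries below all Vector libraries in 4 of 4 genes, with or without Vector replicate 2, a pattern of 16.5% and 24.9% of all genes. RAD23B read 3425, 3393 and 3631 in Vector and 2408, 2501 and 2541 in shEZH2, with Vector libraries close to each other. Its log2 fold change was -0.49 ± 0.12 (limma adjusted p = 0.0709), or -0.51 without Vector replicate 2 (limma adjusted p = 0.00237). UBQLN1 was at -0.39 and, without that library, at -0.34 (limma adjusted p = 0.126 and 0.0238). The shuttles UBQLN4 and UBQLN2 had no adjusted p under 0.05 in either fit, with UBQLN4 at -0.30 and -0.22 (limma adjusted p = 0.231 and 0.118) and UBQLN2 at -0.20 and -0.18 (limma adjusted p = 0.352 and 0.271).

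Of the partners bound in the particle itself, the ubiquitin receptor ADRM1 read 1776, 1182 and 1689 in Vector and 2033, 1516 and 1532 in shEZH2. Its groups overlapped, and it was at 0.14 ± 0.20 (limma adjusted p = 0.697) and, without Vector replicate 2, at -0.05. The small lid subunit SEM1 read 611, 139 and 585.4 in Vector and 908, 529 and 657 in shEZH2. It was at 0.89 ± 0.55 and at 0.19 without the low Vector replicate 2. The core maturation factor POMP read 1964, 473 and 1793 in Vector and 1980, 1719 and 1699 in shEZH2, so that its log2 fold change of 0.60 ± 0.50 (limma adjusted p = 0.486) was -0.06 without Vector replicate 2. The partners PAAF1, AKIRIN2 and ECPAS were at 0.24, -0.09 and -0.36, and at 0.01, -0.22 and -0.10 without that library. Of the deubiquitinases that bind the cap, USP14 was at 0.25 ± 0.13 with groups that did not overlap (limma adjusted p = 0.305) and UCHL5 at -0.05, and without that library they were at 0.21 and -0.11. The segregase genes VCP, NPLOC4 and UFD1, which pull substrates from complexes, were at 0.03, 0.02 and 0.10, and without Vector replicate 2 at 0.06, 0.11 and -0.10, where UFD1 turned direction. Among the ubiquitin genes, UBB and RPS27A were at 0.79 and 0.77 and, without Vector replicate 2, at 0.16 and -0.04. The activating enzymes UBA1 and UBA6 were at 0.06 and -0.52, and at 0.16 and -0.28 without it (limma adjusted p = 0.811 and 0.223 with all libraries).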

How the data were processed

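Per the labels, the authors obtained read counts with FeatureCounts (v1.5.0-p3) and analysed them in DESeq2 (1.20.0). The values in the deposited table are signal, the counts divided by one size factor per library, and 100% of these gave back whole reads. Its columns of log2 fold changes and p-values, and the group means, were not used. The labels name hg19, but 95.6% of the members end within 1000 bases of their end in GRCh38.p14 and 4.44% in GRCh37, so coordinates are given as GRCh38. The aligner's settings and the strandedness are not given in the sources used here.

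Groups were compared in R 4.3.3 with limma 3.58.1 (lmFit, eBayes with a trend) on log2(normalised read count + 1). The 15251 genes whose mean reached 10 were fitted, with Benjamini-Hochberg adjustment over these. Calls used the study's rule, an unadjusted p under 0.05 and a log2 fold change over 0.585 in size. The pseudocount of 1 understates the change of low genes. Named with full values were the catalytic subunits, the highest and lowest change of each group, every called member, and NFE2L1, POMP, ADRM1 and SEM1, and other named genes were picked from their values. The members and lists were chosen with earlier results of these data known.

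Alternatives were edgeR 4.0.16 (TMM, RLE and upper-quartile factors) and DESeq2 1.42.0 on the recovered reads, TMM scaling in limma, pseudocounts of 0.1 and 5, other minimum levels (none, a mean of 50, or 10 reads in each library), protein-coding genes alone, array weights, a replicate block, a gene length trend removed by loess, and each library left out. Leaving out Vector replicate 2 jointly with DESeq2 or with removal of the length trend was an alternative chosen after seeing the data. The fits were tested on simulated data with known changes. No pair of replicates was as close as sampling noise alone (chi-square of 2.16 to 122 per gene). Promoter sequences are from RefSeq. Some genes of the lists are not reported here.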

Additional observations from a re-analysis of the deposited data

How the results depend on the processing

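The number of members called higher by the study's threshold, 5 with all libraries, was 8 with an unadjusted p alone, 3 with array weights, 0 with the adjusted p, and 1 without Vector replicate 2, also with DESeq2 or with the length trend removed. Leaving out 1 library gave 1 to 10. The number with an adjusted p under 0.05, 0 with limma, was 3 with DESeq2, 3 with the length trend removed, 18 with array weights (16 higher and 2 lower), 7 without Vector replicate 2 (7 with DESeq2), and 10 without it and with the trend removed. Counted in either direction, the shares of all genes in the same fits were near or above those of the members. They were 8.66% with the trend removed and 46.7% with array weights, against 6.82% and 40.9% of the members. Without Vector replicate 2 they were 18.9% with limma and 17.4% with DESeq2, against 15.9% of the members in both. Without it and with the trend removed they were 22.4%, against 22.7%. Counted as higher alone, the shares of all genes were below those of the members. They were 9.78% without Vector replicate 2 and 4.43% with the trend removed, where all members that passed were higher. With array weights, 3630 of 15251 genes and 16 of 44 members passed as higher. Leaving out 1 library gave 0 to 7 members with an adjusted p under 0.05. The cause was not tested. The median of the cap ATPase genes was 0.33 and went to 0.094 with the trend removed and without Vector replicate 2, and that of the activators and chaperones, 0.29, turned to -0.00088 with array weights. EZH2 kept its direction throughout (-1.19 to -0.96).

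Same-numbered libraries of the groups did not deviate together in each case (correlations of 0.28, 0.22 and -0.11 for numbers 1, 2 and 3). Vector replicates 1 and 2 correlated best with the library of their own number, and Vector replicate 3 with shEZH2 replicate 1 (0.25). With 3 libraries per group and Vector replicate 2 apart from the others, these values cannot settle whether the numbers pair the libraries. A fit with the replicate block called 8 members higher (18.2%) and gave 1 an adjusted p under 0.05 (2.27%). The shares of all genes were 8.67% and 2.78%. With the length trend removed as well, these numbers were 4 (9.09%) and 1 (2.27%), against 7.21% and 6.13% of all genes. The values of PSMA2, PSMA6 and PSMB10 rest on low counts, with fewer than 60 normalised read counts in each library.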

Other observations

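The table lists 11 pseudogenes of the members, and 3 had a mean of at least 10 normalised read counts. PSMD10P1 read 12.6, 30.3 and 12.2 in Vector and 11.4, 7.19 and 9.55 in shEZH2, PSMC1P1 read 50.2, 39.6 and 56.0 in Vector and 37.1, 23.2 and 46.8 in shEZH2, and PSMA6P1 read 7.32, 3.49 and 10.2 in Vector and 15.2, 13.6 and 10.5 in shEZH2. In percent of the mean of their parent genes these were 3.39%, 4.44% and 18.7%. None had an adjusted p under 0.05 with limma.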
